A study of Mus musculus with 12 samples.

Results

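Atp5o, Dnaja3, Dnajc19 and Gfm2 are nuclear genes whose proteins work inside mitochondria, and they are the 4 genes of that kind described here. They were chosen by symbol because they are listed in at least 1 of the 2 deposited tables of YTHDF1 CLIP peaks, so they are 4 of the 1247 genes in either table. All 4 were in the cocaine table of 1049 genes, and 1 of them, Atp5o, was also in the saline table of 449 genes. The choice rests on the peak numbers themselves, which are therefore given as a description and support no test of their own.

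YTHDF1 is a cytoplasmic reader of N6-methyladenosine (m6A), and CLIP-seq sequences the RNA that ultraviolet light has joined to an antibody-bound protein. The study has 12 striatum libraries in 4 groups of 3, CLIP from cocaine-treated mice, input from cocaine-treated mice, CLIP from saline-treated mice and input from saline-treated mice, all wild-type C57BL/6J. No label used here gives the dose, schedule, age or sex of the animals or says whether tissue was pooled. Each value counts the CLIP peaks of a gene in 1 of the 3 CLIP libraries of a treatment, and libraries are called 1 to 3 by column order. Values of the input libraries were not used here, and levels therefore include differences in RNA abundance.

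Mitochondria carry a small genome of their own, but nearly all of their proteins are encoded in the nucleus, made in the cytoplasm and imported. Neurons draw most of their ATP from oxidative phosphorylation, in which the respiratory chain builds a proton gradient and the ATP synthase spends it. Imported proteins are folded by a mitochondrial Hsp70 chaperone that depends on J-domain co-chaperones. The few proteins encoded in mitochondrial DNA are translated by a separate set of ribosomes and factors.

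The tables list genes above a cutoff. No listed gene had a library without a peak, and the lowest mean of any gene was 6.33 peaks for cocaine and 1.33 for saline. Totals were 25528, 24770 and 24912 peaks in the cocaine libraries, against 3789, 3720 and 3944 in the saline libraries, and the read depth behind them is unknown. The labels name striatal neurons. None of 14 striatal projection neuron markers, 5 general neuron markers and 6 astrocyte markers was listed under its symbol. Of the other markers, 1 of 6 oligodendrocyte, 2 of 6 microglia and 1 of 5 vascular markers were listed. Only 3.34% of all coding genes were listed, so these small counts do not show which cells were present. If the RNA came from whole tissue, fewer cells of a type and less RNA per cell cannot be told apart. The labels do not say that the 3 libraries of a group came from separate animals, so the spread between them may be technical.

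Atp5o encodes the oligomycin sensitivity conferral protein, a subunit of the peripheral stalk that holds the catalytic head of the ATP synthase in place. It had 244, 169 and 190 peaks in the cocaine libraries, against 16, 15 and 16 peaks in the saline libraries. The groups did not overlap, but listed totals were 6.57 times as high in cocaine. How many other genes were separated in this way was not counted. The saline libraries differed from each other by at most 1 peak. On average Atp5o had 201.0 ± 38.7 peaks per cocaine library and 15.7 ± 0.577 per saline library (SD, n = 3 each). Among cocaine genes it took place 13 of 1049, with 15.9 times the median gene's 12.7 peaks, and among saline genes place 35 of 449, with 3.92 times the median of 4.0.

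Dnaja3 encodes a J-domain co-chaperone of mitochondrial Hsp70, also called Tid1 after its Drosophila relative. It had 88, 48 and 68 peaks in the cocaine libraries, a mean of 68.0 ± 20 (SD, n = 3), and was not listed for saline. Library 1 was highest and library 2 lowest, and the mean stood at place 53 of 1049.

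Dnajc19 encodes a small J protein of the inner membrane, also named Tim14, that belongs to the import motor drawing proteins into the matrix. It had 36, 23 and 26 peaks in the cocaine libraries, a mean of 28.3 ± 6.81 (SD, n = 3), and was not listed for saline. Again library 1 was highest and library 2 lowest, and the mean stood at place 184.

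Gfm2 encodes a mitochondrial elongation factor G, which takes part in recycling the mitochondrial ribosome after translation ends. It had 26, 44 and 32 peaks in the cocaine libraries, a mean of 34.0 ± 9.17 (SD, n = 3), and was not listed for saline. Here library 2 was highest and library 1 lowest, and the mean stood at place 133. Gfm2 and Dnajc19 are neighbours in the order of levels and their libraries overlap, so they do not differ beyond their spread. The lowest library of Atp5o lay above the highest of Dnaja3, and the lowest of Dnaja3 above the highest of Gfm2.

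**Figure D1:**
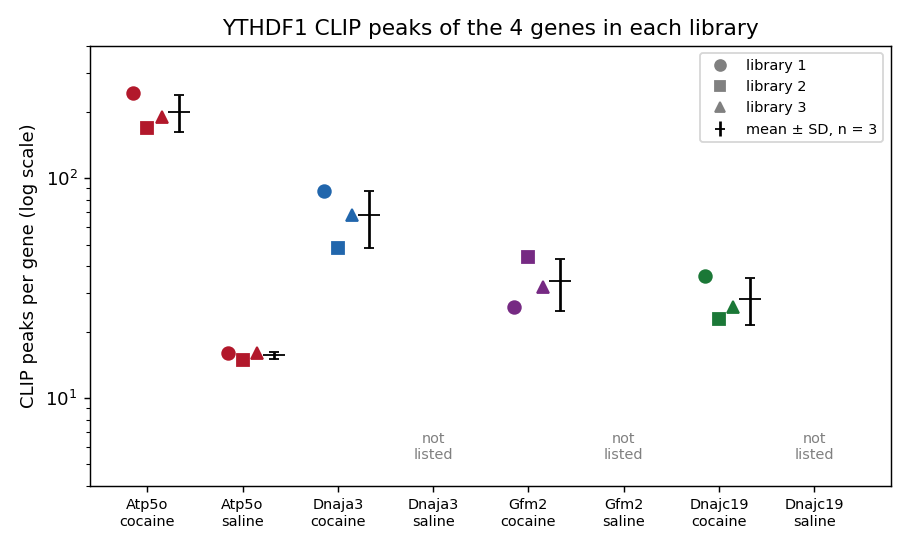
CLIP peaks per gene (log axis) in each library for the 4 genes, cocaine left of saline. Markers are single libraries, and bars show mean ± SD over 3 libraries. Atp5o lies at 169 to 244 peaks in cocaine, against 15 to 16 in saline, and the other 3 genes are not listed for saline.

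The 4 genes together held 394, 284 and 316 peaks in cocaine libraries 1, 2 and 3, or 15.4, 11.5 and 12.7 of each 1000 listed peaks. The order library 1, library 3, library 2 was shared by Atp5o, Dnaja3 and Dnajc19, and 15.4% of all 1049 cocaine genes had it. The opposite order of Gfm2 was found in 12.6%. The coefficients of variation were 19.2% for Atp5o, 29.4% for Dnaja3, 24.0% for Dnajc19 and 27.0% for Gfm2. The median over the 297 cocaine genes with 20 or more peaks was 25.8%, and over all cocaine genes 37.3%. The values of the 4 genes lay on both sides of the median at that level.

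**Figure D2:**
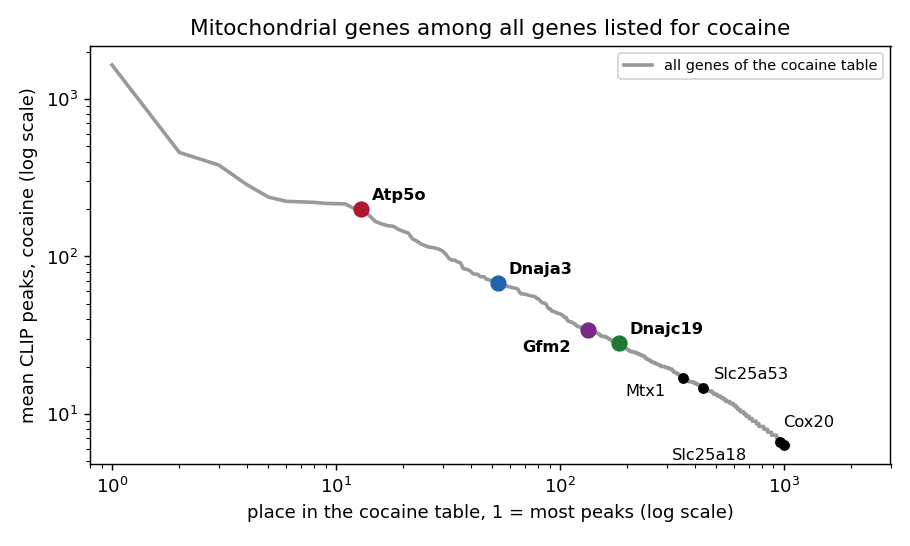
Mean CLIP peaks in cocaine (log axis) against place in the cocaine table (log axis, 1 is the gene with most peaks). The grey line is all 1049 genes, coloured points are the 4 genes and black points are the other listed mitochondrial genes. Atp5o stands at place 13 and Cox20 and Slc25a18 near the lowest listed level.

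Atp5o is a short gene with many peaks. It spans 6408 bases on chromosome 16 from 91925223 to 91931630 (mm10, minus strand). Positions of peaks are not given, so peaks counted for a gene may lie outside its span. Divided by its span, the peak number of Atp5o was 31.4 ± 6.04 per kilobase in cocaine (SD, n = 3) and 2.44 ± 0.0901 in saline. That was place 3 of the 714 cocaine genes and place 5 of the 344 saline genes that have a symbol and a span in RefSeq. The median cocaine gene had 0.390 peaks per kilobase (interquartile range 0.124 to 1.03), and 14 genes exceeded 10. The 2 genes above Atp5o were the non-coding 9630028H03Rik, with 80.1 peaks per kilobase, and Gm10222, a gene of 297 bases with 32.5. Below it came Igsf8 with 21.5, a gene of an immunoglobulin superfamily membrane protein.

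Dnaja3 spans 23626 bases on chromosome 16 from 4684070 to 4707695 (plus strand) and had 2.88 ± 0.847 peaks per kilobase, at place 52. Dnajc19 spans 24075 bases on chromosome 3 from 34057280 to 34081354 (minus strand) and had 1.18 ± 0.283, at place 161. Gfm2 spans 43270 bases on chromosome 13 from 97137933 to 97181202 (plus strand) and had 0.786 ± 0.212, at place 218. All 4 stood above the median gene on this scale. The order of Gfm2 and Dnajc19 turned between peaks per gene and peaks per kilobase, and the libraries of both overlapped on either scale.

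**Figure D3:**
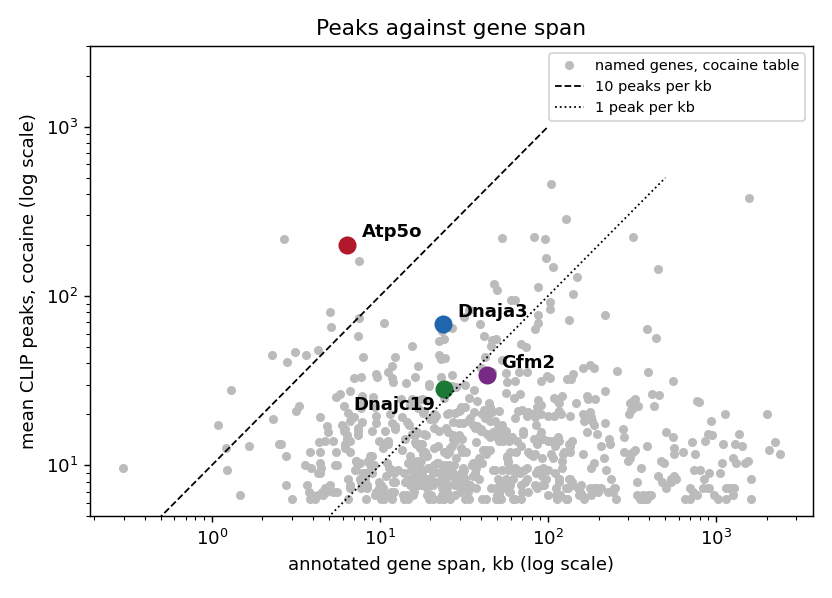
Mean CLIP peaks in cocaine against annotated gene span in kilobases (both axes log) for 714 named genes, with lines at 1 and 10 peaks per kilobase. Atp5o, at 31.4 peaks per kilobase, lies above the upper line, and the other 3 genes lie between 0.786 and 2.88.

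The tables give no position or strand for a peak, so the annotation around each gene bears on what its peaks may belong to. Atp5o overlaps no other RefSeq gene, and its nearest annotated neighbours are the small nuclear RNA gene Gm25245, 3807 bases away, and the non-coding Gm36797, 4710 bases away. Dnaja3 overlaps none either and lies 4349 bases from Coro7, a coronin gene, and 3621 bases from Nmral1. Dnajc19 shares 12701 bases with Fxr1, which encodes an RNA-binding protein related to the fragile X protein. Gfm2 begins 6 bases from Nsa2, a ribosome biogenesis gene. None of these neighbours was in either table under its symbol. Peaks of Dnajc19 cannot be separated from peaks of Fxr1 where they share bases.

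Dnaja3 had listed genes around it and the other 3 genes did not. Within 100 kilobases lay Vasn, a gene of a membrane protein that binds TGF-beta, with 35, 37 and 34 peaks in the cocaine libraries. Glis2, a zinc-finger transcription factor gene, had 15, 10 and 11 peaks there, Cdip1 had 6, 10 and 11, and the heme oxygenase gene Hmox2 had 11, 7 and 1. All 4 were in the cocaine table alone, as Dnaja3 was and as most cocaine genes were (23.9% of them were also listed for saline). The gaps to Dnaja3 were 32.9 kilobases for Vasn, 58.9 for Glis2, 57.8 for Cdip1 and 18.7 for Hmox2. Of 891 listed genes with a RefSeq position, 12 (1.35%) had 4 or more listed genes this near and 79.5% had none. Vasn lies within the span of Coro7, Hmox2 and Cdip1 share bases, and Glis2 shares bases with Pam16, which encodes a partner of Dnajc19 in the import motor and was in neither table. The window was chosen after the values were seen.

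Cocaine and saline can be set side by side for Atp5o alone. Its raw peak number was 12.8 times as high in cocaine, the 5th highest ratio of 251 genes in both tables, where the median ratio was 4.54 (interquartile range 3.0 to 6.63). Over the 31 genes above 100 peaks in cocaine the median ratio was 7.49. Listed totals were themselves 6.57 times as high in cocaine, which is part of every raw ratio. Per 1000 listed peaks of its library, Atp5o held 8.0 ± 1.41 in cocaine and 4.10 ± 0.104 in saline (SD, n = 3 each), a ratio of 1.95. The lowest cocaine library, at 6.82, lay above the highest saline library, at 4.22. The number of other genes separated on this scale was not counted.

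In edgeR's quasi-likelihood fit over the genes in both tables, with TMM factors, the share of peaks of Atp5o was higher in cocaine by 1.37 on the log2 scale (SE 0.25), the 5th highest of 202 genes tested. Its place was 13 of 108 without cocaine library 1, 5 without cocaine library 2 or 3, and 9 or 10 of 240 or 241 without a saline library. It was called at an adjusted p under 0.05, as were 28.2% of all tested genes, with 21 higher (10.4%) and 36 lower (17.8%). Since Atp5o was chosen with this contrast known, the call is a description and nothing is read from it. The median log2 difference of the tested genes was -0.02. With the totals of all listed genes as library size the value for Atp5o was 0.96, that median -0.43, and the calls split into 4 higher and 47 lower. Without TMM factors the value was 1.58, the median 0.19 and the split 31 to 29. Atp5o minus the median was 1.40, 1.39 and 1.40 on the log2 scale with TMM factors, listed totals and no factors.

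**Figure D4:**
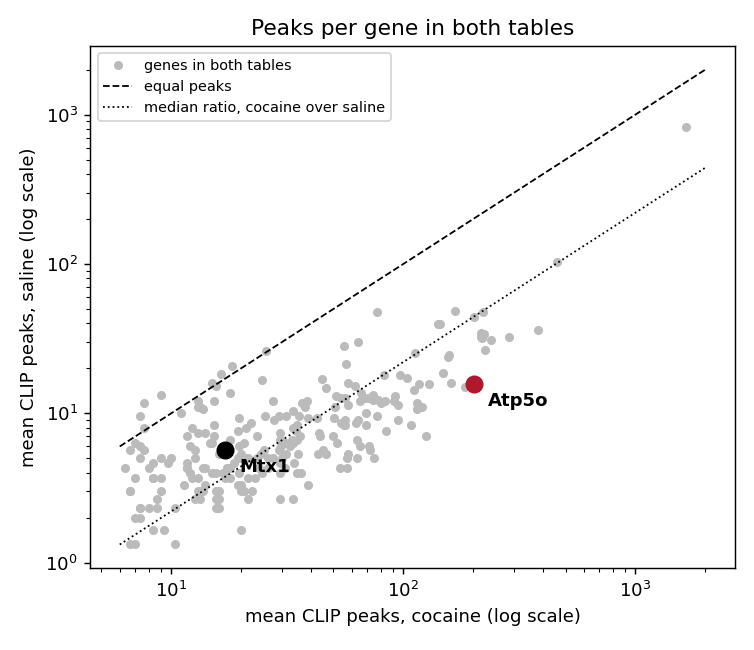
Mean CLIP peaks in cocaine (horizontal, log axis) against saline (vertical, log axis) for the 251 genes in both tables, with lines of equal peaks and of the median ratio of 4.54. Atp5o, at 201.0 in cocaine and 15.7 in saline, lies below the median-ratio line, and Mtx1, at 17 and 5.67, lies above it.

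For Dnaja3, Dnajc19 and Gfm2 no ratio can be given, since a gene missing from the saline table may have had peaks below its cutoff. Over all cocaine genes 23.9% were also listed for saline, and the share grew with the level. Between 54.4 and 85 cocaine peaks, around the level of Dnaja3, 36 of 41 other genes were listed for saline (87.8%). Between 27.2 and 42.5 peaks, around Gfm2, it was 39 of 90 (43.3%), and between 22.7 and 35.4 peaks, around Dnajc19, 42 of 118 (35.6%). Around Atp5o, between 160.8 and 251.3 peaks, it was 11 of 11. Dnaja3 was thus unlisted for saline together with 5 other genes at its level, while around Gfm2 and Dnajc19 most other genes were unlisted too.

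Of 393 coding genes in 10 mitochondrial groups, 10 were in either table (2.54%), against 3.34% of all coding genes. The 10 include the 4 genes, which were chosen because they are listed. Of the other 6, the 4 in the cocaine table had a median of 10.7 peaks, against 12.7 over all cocaine genes. None of 80 mitochondrial ribosomal protein genes, 25 genes of mitochondrial dynamics and DNA maintenance and 24 genes of the TCA cycle was listed, and no symbol of the mitochondrial genome's own genes (prefix mt-) was found.

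Atp5o was the 1 listed gene of 20 for the ATP synthase and its assembly factors. Of 97 respiratory chain genes, Cox20 was listed, an assembly factor gene of cytochrome c oxidase that shares bases with Hnrnpu. Cox20 had 4, 2 and 14 peaks in the cocaine libraries and was not listed for saline, so its mean of 6.67 lay just above the lowest listed level and rested mostly on library 3. The 24 chaperones and proteases of mitochondria gave Dnaja3 and Dnajc19, and the 13 translation factors gave Gfm2.

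Of 35 import genes, Mtx1 was listed, whose protein metaxin 1 sits in the outer membrane. Mtx1 had 23, 15 and 13 peaks in the cocaine libraries, against 7, 2 and 8 in the saline libraries. The groups did not overlap in raw peaks, where listed totals were 6.57 times as high in cocaine. As for Atp5o, the number of other genes separated in this way was not counted. The share of peaks of Mtx1 was not called in the fit, with a log2 difference of -0.71 (SE 0.48, edgeR adjusted p = 0.329). Per 1000 listed peaks it held 0.676 ± 0.199 in cocaine and 1.47 ± 0.814 in saline (SD, n = 3 each), and the libraries overlapped.

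Of 56 carriers and channels of the mitochondrial membranes, 3 were listed, each in 1 table. Slc25a53, an X-linked member of the carrier family, had 21, 11 and 12 peaks in cocaine. Slc25a18, a glutamate carrier gene, had 8, 8 and 3 peaks in cocaine, at the lowest listed level. Slc25a13, the gene of an aspartate-glutamate carrier, had 1, 1 and 3 peaks in saline. Gars, which encodes the glycyl-tRNA synthetase of both cytoplasm and mitochondria, was the listed gene of 19 tRNA synthetases, with 1, 1 and 2 peaks in saline. Slc25a18, Slc25a13 and Gars lie at or near the lowest level of the table that lists them.

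Among 49 J proteins of all compartments, 4 were listed (8.16%, against 3.34% of all coding genes), all in the cocaine table alone. So were most cocaine genes, of which 23.9% were also listed for saline. Of the 4 J proteins, Dnaja3 and Dnajc19 were chosen because they are listed, and the other 2 are not mitochondrial. Dnajc1, the gene of a J protein of the endoplasmic reticulum membrane, had 15, 10 and 27 peaks and shares bases with Mllt10, which is listed too. Dnajb13, the gene of an axonemal J protein, had 5, 14 and 9. The lowest library of Dnaja3, at 48 peaks, lay above the highest of either, while the libraries of Dnajc19, at 23 to 36 peaks, overlapped those of Dnajc1.

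**Figure D5:**
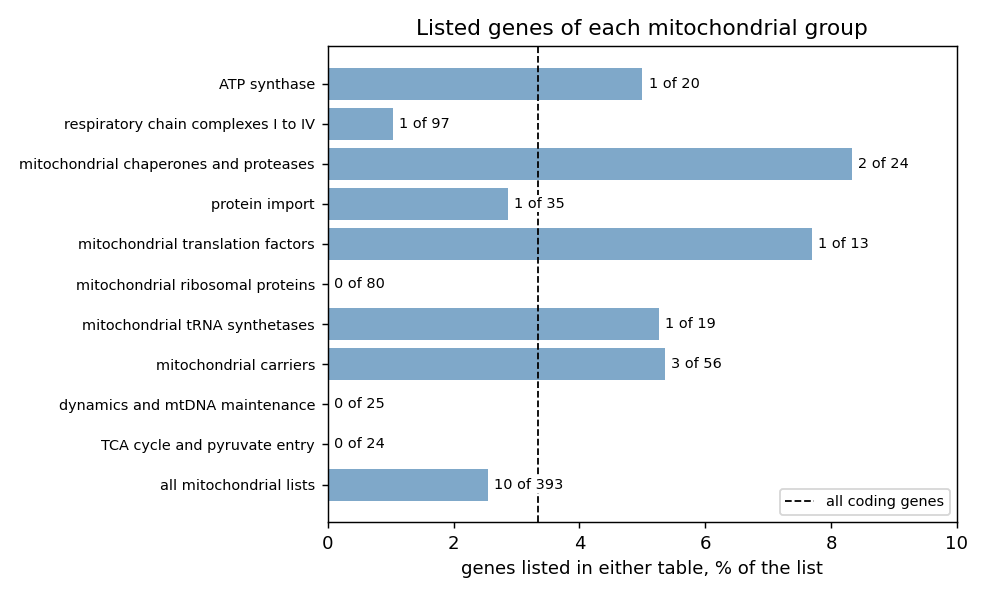
Share of each mitochondrial gene group listed in either table, in percent, with listed and total genes beside each bar. The dashed line marks the 3.34% of all coding genes. Groups range from none listed to 2 of 24 for chaperones and proteases, and the 4 genes described here, chosen because they are listed, are counted in the bars.

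Genes most like each of the 4 were taken by the mean absolute difference of log2 peak numbers over the libraries. For Atp5o, over 6 libraries and 167 other named genes, the nearest was Igsf8 at 0.27, whose cocaine libraries held 133, 168 and 182 peaks, against 17, 12 and 19 in its saline libraries. Igsf8 is also a short gene, of 7.48 kilobases. Glp2r, a glucagon-like peptide receptor gene, followed at 0.33 and Copg2, a coatomer subunit gene, at 0.38. For the other 3 genes the measure covers the 3 cocaine libraries and 716 other named genes.

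The non-coding D030047H15Rik (0.21), the farnesyltransferase subunit gene Fntb (0.23) and Rundc3b (0.26) were nearest to Dnaja3. The non-coding Srrm4os (0.13), the F-box gene Fbxw8 (0.14) and Srpr (0.16), a signal recognition particle receptor gene, were nearest to Dnajc19. The non-coding Rsf1os1 (0.09) and Gm12359 (0.21) and the chemokine receptor gene Ccr9 (0.22) were nearest to Gfm2.

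A feature of the DNA that the choice did not use is shown by the promoters. Each window holds 250 bases before and 50 from a RefSeq start on (GRCm38.p6), and all 4 genes matched by symbol. That start is the first transcribed base of the span given above for Atp5o, Dnaja3 and Dnajc19 and lies 4 bases inside the span for Gfm2. Distances below are counted from it. The binding core of NRF1, a transcription factor known to act on many nuclear genes of mitochondrial proteins, was searched as GCGCNTGCGC and its reverse complement GCGCANGCGC. It was present in 3 of the 4 windows, and those 3 are shown with the core in capitals to let the matches be compared.
Atp5o (chr16:91931581-91931880, minus strand): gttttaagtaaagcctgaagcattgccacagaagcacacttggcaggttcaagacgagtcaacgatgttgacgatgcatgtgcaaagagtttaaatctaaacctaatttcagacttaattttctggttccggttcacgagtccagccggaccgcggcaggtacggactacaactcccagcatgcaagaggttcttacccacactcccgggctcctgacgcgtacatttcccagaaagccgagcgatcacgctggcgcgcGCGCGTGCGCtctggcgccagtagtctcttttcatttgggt
Dnaja3 (chr16:4683820-4684119, plus strand): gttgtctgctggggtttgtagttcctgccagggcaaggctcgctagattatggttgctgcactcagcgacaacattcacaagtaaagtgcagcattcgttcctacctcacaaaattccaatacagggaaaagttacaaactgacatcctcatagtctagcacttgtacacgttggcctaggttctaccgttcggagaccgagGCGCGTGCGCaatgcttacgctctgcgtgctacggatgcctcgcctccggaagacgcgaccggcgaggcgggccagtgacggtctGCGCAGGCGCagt
Gfm2 (chr13:97137687-97137986, plus strand): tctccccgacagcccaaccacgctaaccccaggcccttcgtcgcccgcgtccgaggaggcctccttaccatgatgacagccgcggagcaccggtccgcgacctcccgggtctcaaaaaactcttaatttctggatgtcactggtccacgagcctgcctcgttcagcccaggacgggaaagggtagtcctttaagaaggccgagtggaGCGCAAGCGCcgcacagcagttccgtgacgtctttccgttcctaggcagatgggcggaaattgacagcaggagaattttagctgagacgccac

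Atp5o and Dnaja3 held the same 10 letters, GCGCGTGCGC, beginning 9 bases after the start in Atp5o and 48 bases before it in Dnaja3. Dnaja3 held a second match 37 bases after the start, and the match of Gfm2 began 43 bases before it. No match was found in the window of Dnajc19. Of 27025 genes with a window, 5.19% held the core, as did 4.93% of the 8816 genes whose windows have 50 to 60% G and C, the range of these 4. Among the 329 genes of the mitochondrial groups with a window it was 16.7%. Among the 595 coding genes with a window on either peak list it was 6.39%. The ETS core CCGGAAG was in the window of Dnaja3 (9.93% of all genes) and did not overlap the NRF1 cores, and the YY1 core AANATGGC was in none of the 4 (6.96% of all genes), both searched on both strands. The motifs were chosen after the windows had been read, a match is not a bound site, and the windows are not places of CLIP peaks.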

How the data were processed

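YTHDF1 CLIP libraries of striatum from cocaine- and saline-treated mice were compared, 3 of each. Per the submitters' processing notes, cutadapt and STAR were used with mm10 (no versions). The deposited tables' names point to CLIPper. Its settings, and how peaks were given to genes, are not stated in the labels. The deposited values are counts of peaks per gene and library, per the file headers and values. The deposited score per gene is the authors' mean of the 3 columns and was used to check them. The letter c or s in a table's name, which opens the library names in the labels, gave its treatment.

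Repeated lines of a gene were merged. Positions come from RefSeq GRCm38.p6, where 891 of 894 named genes matched. The 251 genes in both tables were fitted with edgeR 4.0.16 (filterByExpr, TMM, quasi-likelihood test, Benjamini-Hochberg adjustment, R 4.3.3), tested on simulated data first. DESeq2 1.42.0, other scalings, no filter and leaving out each library were alternatives. Named were the 4 genes, listed genes of the mitochondrial and J-protein lists, neighbours, and the 3 nearest genes by log2 peak numbers. Some neighbouring genes are not reported here. The members and lists were chosen with earlier results of these data known.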

Additional observations from a re-analysis of the deposited data

How the results depend on the processing

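The share of peaks of Atp5o was higher in cocaine and called under all 11 other settings of the fit, with log2 differences of 0.96 to 1.58. Without each library in turn the differences were 1.05 to 1.47. Between 13.8% and 29.7% of all tested genes were called under these settings. The fits reuse the same values and Atp5o was chosen with the contrast known, so nothing is read from the repeated calls. The number of called genes, 57 of 202, moved to 23 to 49 when a library was left out. It was 24 without cocaine library 1, 27 without cocaine library 2, 23 without cocaine library 3 and 33 without saline library 1, with 103 to 240 genes tested. The other settings gave 43 (DESeq2) to 60 (no TMM factors) calls. With 5 kilobases added to each side of a gene, the places by peaks per kilobase in cocaine moved to 2 for Atp5o, 22 for Dnaja3, 112 for Dnajc19 and 153 for Gfm2, against 3, 52, 161 and 218. Matching by synonym as well gave 10 listed mitochondrial genes again, and the cocaine cutoff applied to the saline table left 8. No paired analysis was possible because the columns carry no replicate number. Peak positions, input values and read depth were not analysed here, so the levels cannot be set against RNA abundance.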
